A study of Mus musculus with 6 samples.

Results

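The Hox genes of the 4 mouse clusters were examined in MIN6-4N, an insulin-producing cell line from a mouse insulinoma, in a clone stably transfected with the expression plasmid pcDNA3.1 carrying mouse Meg3 and in a clone carrying the empty plasmid. Members were all probe sets to which the array annotation gives exactly 1 symbol of a gene in Hox cluster A, B, C or D, without antisense names. That rule gave 38 genes and 147 probe sets, out of 20416 genes with a single symbol on the array and 241419 probe sets in all. Of the 38 genes, 10 belong to cluster A, 10 to B, 9 to C and 9 to D.

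The Meg3 group was 3 independent cultures of 1 Meg3 clone, and the vector group was 3 independent cultures of 1 vector clone. G418 at 750 µg/ml was applied to both clones over 5 weeks, after which they were kept in low glucose medium with 15% serum and 500 µg/ml G418, per the labels' protocols. Total RNA (6 µg) of each culture was labelled with biotin and put on 1 Affymetrix array. The name of the Meg3 clone varies between labels, which also mention sorted cells in a description, although no protocol describes a sort. Each group is a single clone, so an effect of Meg3 cannot be told apart from any other difference between the clones, and p-values measure the spread between cultures.

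Hox genes encode homeodomain transcription factors that give cells their position along the head-to-tail axis of the embryo. They lie in order on the chromosome, low paralogue numbers being used toward the head and high ones toward the tail, and members with the same number in different clusters descend from a common ancestral gene. Polycomb complexes keep them silent where they are not used, trithorax/MLL complexes hold them active, and retinoic acid and CDX factors help to switch them on. Meg3 is an imprinted long non-coding RNA, and the study compared the clones to find genes whose level goes with its overexpression.

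Meg3 itself checked the labels. Its gene value, the mean log2 value of its 5 probe sets, was 7.24, 7.91 and 7.53 in the Meg3 clone, against 5.63, 6.00 and 5.88 in the vector clone, a log2 difference of 1.72 (SE 0.19; limma, Benjamini-Hochberg adjusted p = 0.00756). All 10 beta cell markers listed were above the background bar described below in both clones, Ins2 at 12.60 ± 0.05 in the Meg3 clone and 12.54 ± 0.09 in the vector clone (SD, n = 3 each), and 0 of the 10 were called (limma; 0.666% of all genes were), while 2 were lower at an unadjusted p under 0.05, where 4.28% of all genes were. Their summed level was 106.62 to 107.59 on the Meg3 arrays and 108.04 to 108.54 on the vector arrays, without overlap, and its part in the Hox results was not tested. Summed levels of the other islet, acinar, duct, mesenchyme and endothelium, and immune markers overlapped between the clones. The glucagon gene Gcg was also bright, at 12.66 ± 0.11 in the Meg3 clone and 12.82 ± 0.12 in the vector clone, and did not pass the test. The brightest beta cell markers, Iapp and G6pc2, differed by -0.12 (SE 0.23) and -0.05 (SE 0.14). The 2 lower at an unadjusted p under 0.05 were Pcsk1 (-0.54, SE 0.12, limma adjusted p = 0.160) and Slc2a2 (-0.27, SE 0.11, limma adjusted p = 0.684). Pcsk1, the most negative of the 10, is part of their summed level. Of the acinar, duct, mesenchyme and endothelium, and immune markers, 1 of 5, 2 of 4, 3 of 7 and 1 of 4 were above the bar in each clone, and 0 were called (limma). The lowest correlation of gene values between arrays was 0.968. Meg3 replicate 1 and vector replicate 2 stood apart: the SD of their genes around the other arrays' median was 0.63 and 0.85, while the remaining arrays had 0.42 to 0.48. Results that rest on these arrays are given with and without them.

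The Hox genes called were lower in the Meg3 clone. Hoxb9, Hoxb5 and Hoxb6 fell, with log2 differences of -1.97, -1.16 and -0.99 (limma adjusted p = 0.00224, 0.0158 and 0.0111), and 0 Hox genes rose. These 3 are 7.89% of the 38 Hox genes, where 0.465% of all genes were called lower, 0.201% higher and 0.666% in either direction. A further 6 genes were lower at an unadjusted p under 0.05 without passing the adjustment: Hoxa5, Hoxa6, Hoxa7, Hoxb8, Hoxc6 and Hoxc10. With the called genes they make 9 of 38 (23.7%), against 4.28% of all genes. Higher at that p were 0 Hox genes, against 2.68% of all genes. With array weights, 9 Hox genes were called lower and 2 higher, Hoxb3 (0.42, limma adjusted p = 0.0444) and Hoxd13 (0.37, 0.0217), in a fit that called 7.93% of all genes lower and 5.21% higher. Of the 38, 27 had a negative difference, and the median was -0.08 on the log2 scale, against 0.01 over all genes. Whole cultures were measured, so fewer cells with a transcript and less of it per cell cannot be told apart.

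**Figure D1:**
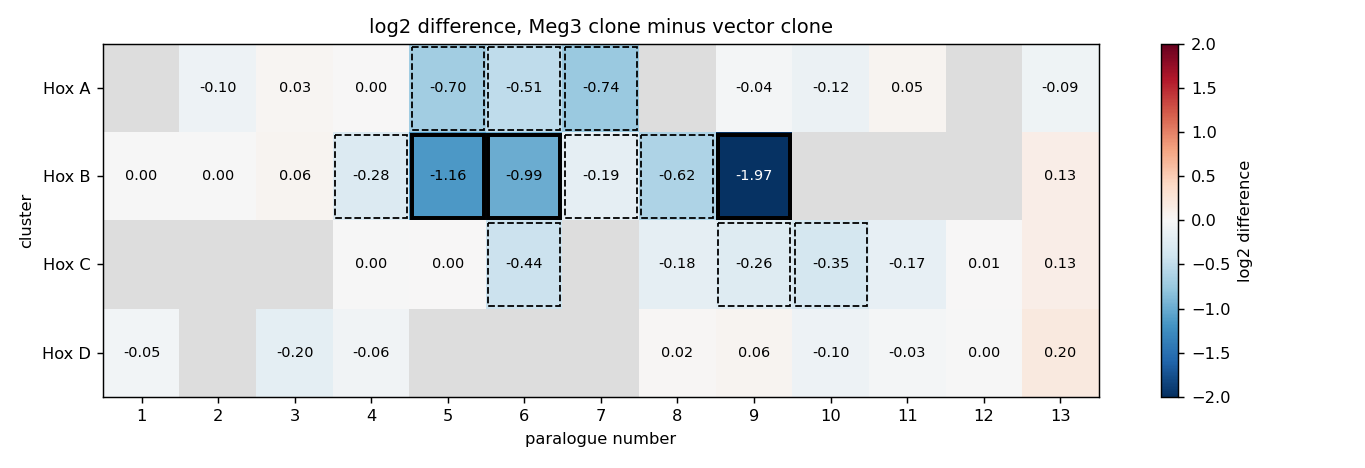
Log2 difference, Meg3 clone minus vector clone (colour and number), for each measured Hox gene by cluster (rows) and paralogue number (columns); grey cells hold no gene of the rule. Thick frames mark genes with a limma adjusted p under 0.05, and dashed frames mark other genes whose 3 Meg3 and 3 vector arrays did not overlap; framed cells lie between paralogues 4 and 10 of clusters A, B and C.

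By paralogue number, the 18 genes numbered 5 to 10 were at a median of -0.31 on the log2 scale, 15 being negative. The 11 genes numbered 1 to 4 had a median of -0.00 (range -0.28 to 0.06), and the 9 numbered 11 to 13 had a median of 0.01 (range -0.17 to 0.20). All 9 genes under an unadjusted p of 0.05 by limma were among the 18. The bounds 5 and 10 are the lowest and highest paralogue numbers of these 9 genes. The grouping therefore matches these results, and its medians and counts are no independent support. The 3 Meg3 arrays lay below the 3 vector arrays for 12 of the 38 genes (31.6%, against 6.39% of all genes), 11 of them numbered 5 to 10 and the remaining one Hoxb4. For 0 of the 38 did they lie above, where 6.41% of all genes did so.

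Cluster B held the called genes. Its 10 members had a median log2 difference of -0.23, 6 of them with groups that did not overlap. Cluster A had a median of -0.09 with 3 such genes and cluster C of -0.17 with 3. Cluster D had a median of -0.03, with 0 such genes and differences from -0.20 to 0.20, and whether the clusters differ from each other was not tested. Without vector replicate 2 and Meg3 replicate 1 the medians were -0.17 for B, -0.04 for A, -0.12 for C and 0.07 for D.

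Hoxb9, which helps to set rib identity in the thorax, was the Hox gene with the largest difference. Its gene value was 6.14, 6.44 and 6.66 in the Meg3 clone, against 8.45, 8.24 and 8.47 in the vector clone. The lowest vector array was above the highest Meg3 array by far more than the spread within either clone. The means were 6.41 ± 0.26 in the Meg3 clone and 8.39 ± 0.13 in the vector clone (SD, n = 3 each), a 3.93-fold lower level (log2 difference -1.97, SE 0.16, 95% interval -2.34 to -1.61; limma adjusted p = 0.00224). It was called in all 16 alternative settings, 6 of which left out 1 array, with limma adjusted p up to 0.0278. The exact permutation p was 0.1, and no 3 against 3 design can go lower.

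Of the 6 Hoxb9 probe sets, each of which covers about an exon or part of one, 5 were lower with no overlap between the groups. Probe sets are numbered here in the order of their array identifiers. Number 5 read 5.66, 5.16 and 5.80 in the Meg3 clone and 9.44, 8.69 and 9.08 in the vector clone, a log2 difference of -3.53 (SE 0.28). Number 3 read 7.72, 8.07 and 7.98 in the Meg3 clone and 10.30, 9.55 and 10.29 in the vector clone, a difference of -2.12 (SE 0.27). Numbers 2, 4 and 6 differed by -1.99, -2.88 and -1.51. Number 1 was higher, without overlap, at 7.89, 7.67 and 7.68 in the Meg3 clone and 7.54, 7.60 and 7.56 in the vector clone (0.18, SE 0.18), so the gene mean is smaller in size than the change at most of its probe sets.

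Hoxb5, which acts in gut, lung and shoulder-level patterning, had gene values of 5.24, 5.14 and 5.36 in the Meg3 clone, against 6.20, 6.66 and 6.35 in the vector clone. The groups did not overlap (log2 difference -1.16, SE 0.15; limma adjusted p = 0.0158), and the Meg3 mean of 5.25 was under the background bar of 5.91 described below, so no fold is given. The call rested on 1 of its 4 probe sets. That one, number 4, read 4.30, 4.64 and 4.86 in the Meg3 clone and 8.19, 8.51 and 8.39 in the vector clone, a log2 difference of -3.76 (SE 0.22), the most negative of all 147 Hox probe sets. The other 3 overlapped between the clones and differed by -0.45, -0.12 and -0.29.

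Hoxb6, the next gene along the cluster, had gene values of 5.42, 5.36 and 5.53 in the Meg3 clone, against 6.46, 6.53 and 6.31 in the vector clone. Every vector array was above every Meg3 array, with a log2 difference of -0.99 (SE 0.12; limma adjusted p = 0.0111) and a Meg3 mean of 5.44, again under the bar. Its probe set 1 read 4.39, 4.32 and 4.27 in the Meg3 clone and 6.80, 6.76 and 6.26 in the vector clone (-2.28, SE 0.22). Probe set 3 differed by -0.60 without overlap and probe set 2 by -0.11.

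The calls of Hoxb5 and Hoxb6 were less stable than that of Hoxb9. Hoxb5 lost its call without Meg3 replicate 1 (limma adjusted p = 0.0704), 2 (0.116) or 3 (0.0975) or vector replicate 3 (0.0769), and Hoxb6 lost it without Meg3 replicate 1 (0.0531), 2 (0.10) or 3 (0.0776) or vector replicate 1 (0.0645). Without any single Meg3 array, 1 Hox gene, Hoxb9, was therefore called. Their differences in these fits ran from -1.26 to -1.03 for Hoxb5 and from -1.06 to -0.95 for Hoxb6. Both calls were also lost when the median of a gene's probe sets stood for its mean (Hoxb5 -0.94, limma adjusted p = 0.189; Hoxb6 -0.65, 0.328). With the brightest probe set alone Hoxb6 was at -0.60 (limma adjusted p = 0.398) and Hoxb5 at -3.76, which was called. That Hoxb5 probe set, number 4, is the brightest through the vector clone, with a mean of 8.36. In the Meg3 clone it is the dimmest of the 4, at 4.60. The choice favours a difference, so this call is no independent support. Without both arrays that stood apart, 6 Hox genes were called lower and 0 higher, namely these 3 with Hoxa5, Hoxa7 and Hoxc10. In that fit 4.01% of all genes were called lower and 1.43% higher. Those arrays were picked for their spread, so this count is no independent support.

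**Figure D2:**
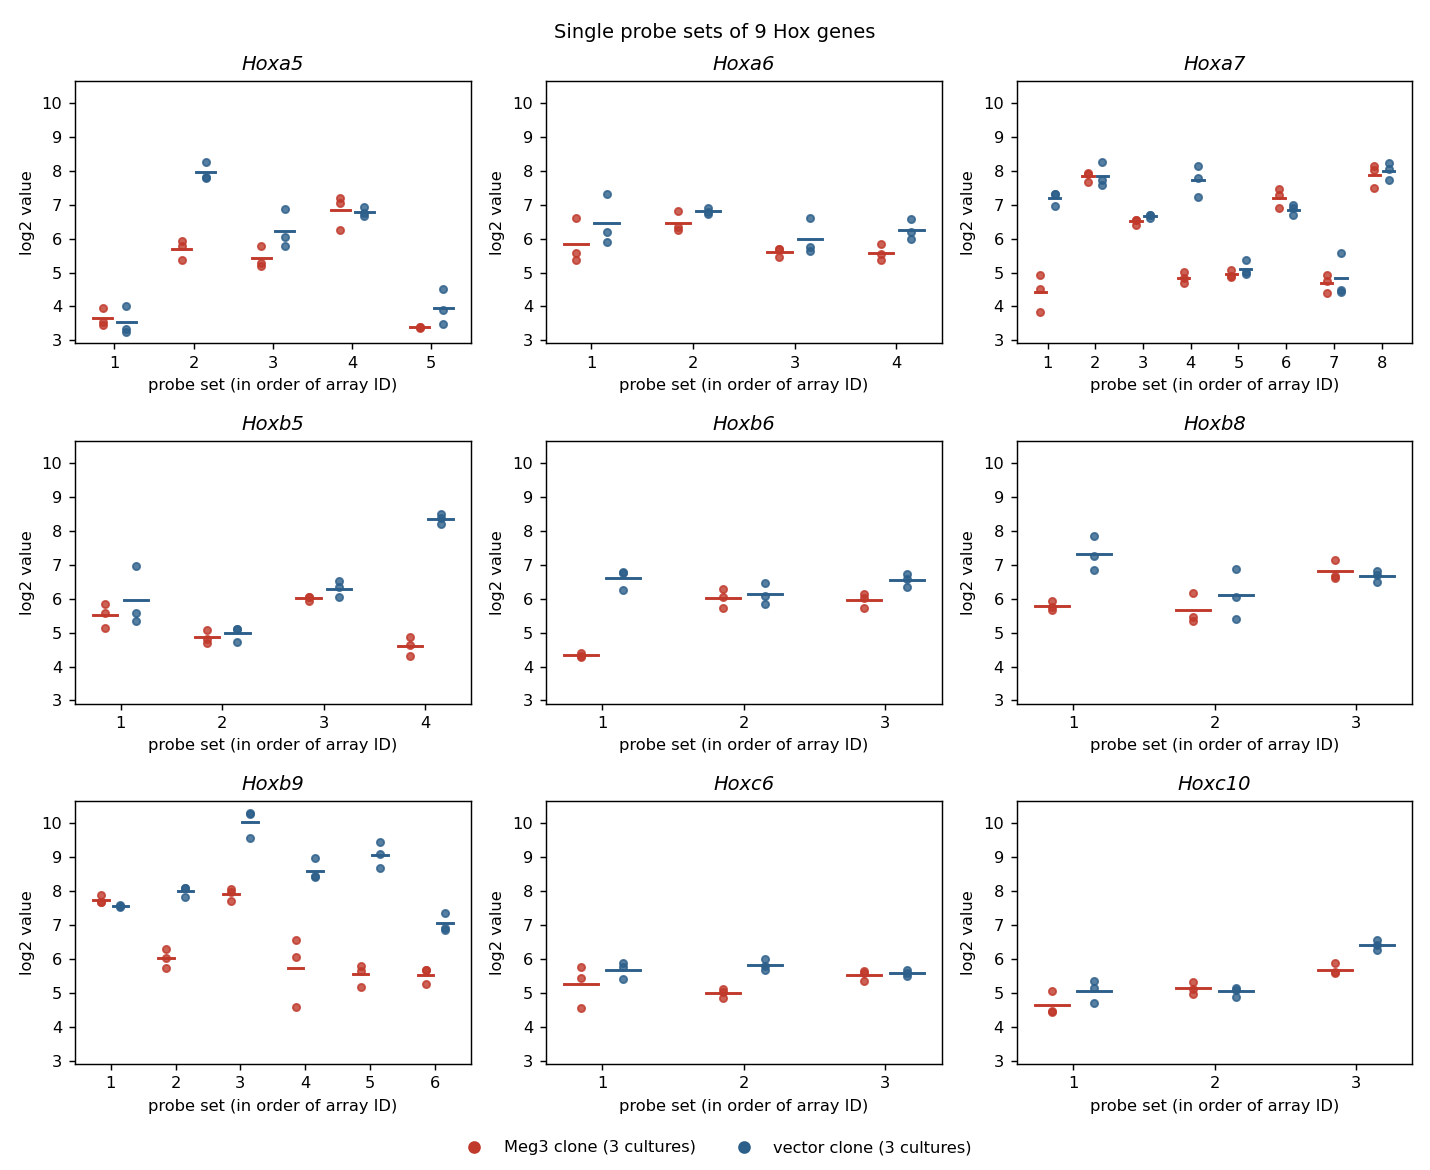
Log2 value of each probe set (x axis, in the order of array identifiers) on the 3 Meg3 arrays (red, left) and 3 vector arrays (blue, right) for the 9 Hox genes with a limma unadjusted p under 0.05; short lines are group means. In Hoxb9 the Meg3 arrays lie lower at 5 of 6 probe sets (log2 differences -3.53 to -1.51), in Hoxa7 by more than 2-fold at 2 of 8 (-2.88 and -2.77), and in Hoxa5, Hoxb5, Hoxb6 and Hoxb8 by more than 2-fold at 1 probe set each.

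Their neighbours Hoxb8 and Hoxb7 were lower by less, and neither passed the test. Hoxb8, known for roles in spinal sensory circuits and blood progenitors, had gene values of 6.26, 5.90 and 6.09 in the Meg3 clone, against 6.87, 6.88 and 6.36 in the vector clone. The lowest vector array was 6.36 and the highest Meg3 array 6.26, so the groups only just separated (log2 difference -0.62, SE 0.18; limma adjusted p = 0.293). Its probe set 1 had a log2 difference of -1.54 (SE 0.29), with 5.94, 5.75 and 5.67 in the Meg3 clone and 7.85, 7.28 and 6.85 in the vector clone, while the other 2 overlapped. With its brightest probe set alone Hoxb8 was at 0.14, and with the median of its probe sets at -0.93. Hoxb7 differed by -0.19 (SE 0.11), with 7.54, 7.46 and 7.42 in the Meg3 clone and 7.88, 7.95 and 7.96 in the vector clone at its probe set 2. A probe set annotated to both Hoxb8 and Hoxb7, which the rule leaves out, read 6.49, 6.05 and 6.14 in the Meg3 clone and 7.95, 8.62 and 8.28 in the vector clone. That is a log2 difference of -2.05 (SE 0.25; limma adjusted p = 0.139 over all probe sets), without overlap, and it belongs to neither gene value.

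Toward the head end of cluster B the clones were close. Hoxb4 differed by -0.28 (SE 0.16), its groups just apart. Hoxb1, which patterns the hindbrain, read 6.76, 6.89 and 6.60 in the Meg3 clone and 6.48, 7.03 and 6.75 in the vector clone, with a 95% interval of the log2 difference from -0.38 to 0.37. Hoxb2 and Hoxb3 differed by -0.00 (SE 0.13) and 0.06 (SE 0.20). Hoxb13, at the tail end and set apart from Hoxb9 by a long stretch of the chromosome, differed by 0.13 (SE 0.18).

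In cluster A, the 3 neighbours Hoxa5, Hoxa6 and Hoxa7 had Meg3 arrays below all vector arrays, and 0 of them passed the test. Hoxa7 had gene values of 6.11, 5.91 and 6.13 in the Meg3 clone, against 6.77, 6.93 and 6.66 in the vector clone. The groups did not overlap, and the log2 difference of -0.74 (SE 0.13) missed the threshold narrowly (limma adjusted p = 0.0520). It passed in 5 of 16 alternative settings, among them without vector replicate 2 (limma adjusted p = 0.0357), and the difference was -0.12 with its brightest probe set alone and -1.26 with the median of its probe sets. Of its 8 probe sets, 2 carried the difference. Number 4 read 4.83, 5.03 and 4.69 in the Meg3 clone and 8.15, 7.78 and 7.24 in the vector clone (-2.88, SE 0.27). Number 1 read 4.94, 3.82 and 4.51 in the Meg3 clone and 7.32, 6.96 and 7.31 in the vector clone (-2.77, SE 0.31). The other 6 differed by -0.16 to 0.35, and 1 of them, number 3, was lower without overlap (-0.16, SE 0.17).

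Hoxa5, which is needed for lung and mammary development, had gene values of 5.06, 4.90 and 5.03 in the Meg3 clone, against 5.47, 6.07 and 5.55 in the vector clone. The arrays did not overlap, but vector replicate 2 was high within its group (log2 difference -0.70, SE 0.17; limma adjusted p = 0.199). Without vector replicate 2 the difference was -0.51. Its brightest probe set over all arrays, number 2, read 5.94, 5.38 and 5.78 in the Meg3 clone and 7.79, 8.27 and 7.82 in the vector clone. That is a log2 difference of -2.26 (SE 0.24). Number 4 was almost as bright over all arrays, and brighter in the Meg3 clone. It read 6.26, 7.07 and 7.20 in the Meg3 clone and 6.94, 6.67 and 6.76 in the vector clone (0.05, SE 0.29). Numbers 3 and 5 differed by -0.82 and -0.57 without overlap, and number 1 by 0.11 with overlap.

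Hoxa6, between the other two, had gene values of 6.05, 5.75 and 5.84 in the Meg3 clone, against 6.10, 6.85 and 6.21 in the vector clone. The groups barely separated, and vector replicate 2 was again high (log2 difference -0.51, SE 0.20; limma adjusted p = 0.639). Without vector replicate 2 the difference was -0.28. All 4 of its probe sets were lower, by -0.34 to -0.67, and 1 of them without overlap.

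Genes on either side of these 3 overlapped between the clones. Hoxa4 read 7.23, 7.11 and 7.02 in the Meg3 clone and 6.97, 7.32 and 7.08 in the vector clone, and its 95% interval ran from -0.31 to 0.31 on the log2 scale. Hoxa9, on the other side, differed by -0.04 (SE 0.12; interval -0.32 to 0.24). Hoxa13, a gene of the limb and body tip, read 6.41, 6.27 and 6.56 in the Meg3 clone and 6.26, 6.82 and 6.42 in the vector clone (-0.09, SE 0.17). Hoxa2, Hoxa3, Hoxa10 and Hoxa11 differed by -0.12 to 0.05.

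The promoter table holds 300-base windows, from 250 bases before the gene's start to 50 after it, for 22 of the 38 Hox genes. Of the 9 genes under an unadjusted p of 0.05 by limma it holds Hoxa5, Hoxa6, Hoxa7 and Hoxb8. They are shown because they had that unadjusted p and a window, although 0 of the 4 passed the test. Hoxa5, Hoxa6 and Hoxa7 are neighbours in cluster A, and Hoxb8 lies in cluster B. In each of them the Meg3 arrays lay below the vector arrays. That was also so for Hoxb4, which has a window but not that p and is not shown. Sequences are from RefSeq (GRCm38.p6), 5′ to 3′ on the gene's strand, which is the minus strand for the Hoxa genes and the plus strand for Hoxb8. The windows are chr6:52204538-52204837 (Hoxa5), chr6:52208623-52208922 (Hoxa6), chr6:52218524-52218823 (Hoxa7) and chr11:96281655-96281954 (Hoxb8). Capitals mark matches, on either strand, to 5 motifs: the TATA box TATAAA, the GC box GGGCGG, the CCAAT box CCAAT, a CDX-type motif TTTATNG and a PBX-HOX-type motif TGATNNAT.
Hoxa5: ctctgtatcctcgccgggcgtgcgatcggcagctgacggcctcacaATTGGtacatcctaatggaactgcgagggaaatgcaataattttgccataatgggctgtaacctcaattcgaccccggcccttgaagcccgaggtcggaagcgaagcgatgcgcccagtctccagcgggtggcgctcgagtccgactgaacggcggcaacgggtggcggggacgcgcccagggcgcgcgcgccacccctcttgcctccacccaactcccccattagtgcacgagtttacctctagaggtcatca
Hoxa6: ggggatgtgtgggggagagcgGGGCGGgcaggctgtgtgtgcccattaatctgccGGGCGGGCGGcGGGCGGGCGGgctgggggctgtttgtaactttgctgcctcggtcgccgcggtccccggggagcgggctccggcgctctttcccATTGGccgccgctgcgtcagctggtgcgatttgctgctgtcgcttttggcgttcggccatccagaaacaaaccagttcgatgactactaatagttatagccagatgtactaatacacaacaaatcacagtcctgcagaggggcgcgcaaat
Hoxa7: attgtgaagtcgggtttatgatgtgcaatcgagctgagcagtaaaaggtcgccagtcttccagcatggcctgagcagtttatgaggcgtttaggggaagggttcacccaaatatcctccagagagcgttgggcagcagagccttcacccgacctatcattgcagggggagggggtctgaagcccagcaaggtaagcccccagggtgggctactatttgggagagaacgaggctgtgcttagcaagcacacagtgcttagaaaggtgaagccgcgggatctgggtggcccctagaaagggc
Hoxb8: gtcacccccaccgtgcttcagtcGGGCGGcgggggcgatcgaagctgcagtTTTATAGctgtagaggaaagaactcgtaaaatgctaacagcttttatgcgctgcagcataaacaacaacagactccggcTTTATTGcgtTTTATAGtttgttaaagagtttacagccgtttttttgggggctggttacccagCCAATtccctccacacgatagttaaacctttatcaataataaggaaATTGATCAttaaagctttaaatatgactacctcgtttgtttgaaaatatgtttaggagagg

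The windows of these 4 genes differ in composition. Hoxb8 has 42.3% G and C, Hoxa7 55.7%, Hoxa5 61.7% and Hoxa6 62%, with 13, 9, 29 and 26 CpG dinucleotides. The median of 32851 promoters is 7 and that of the 24 windows of Hox genes 14.5, so Hoxb8 and Hoxa7 lie below the Hox median. Hoxa6 has 5 matches to the GC box, whose first bases lie at -229 to -180 relative to the start. Hoxb8 has 3 CDX-type matches, 2 of which overlap a TATA box match on the other strand, and 1 PBX-HOX-type match at -11. The CDX-type motif is in 10.9% of all promoters and in 2 of the 24 windows of Hox genes (8.33%). The PBX-HOX-type motif is in 8.85% of all promoters and in 4 of the 24. The GC box is in 35.7%, the CCAAT box in 37.4% and the TATA box in 13.6% of all promoters, and in 10, 15 and 4 of the 24 windows. A match is a description of the letters only, and the Hoxa7 window holds none of the 5 motifs.

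Cluster C was dim, and its lower genes differed by less. Hoxc6, a gene of the upper thorax and forelimb level, had gene values of 5.45, 5.01 and 5.30 in the Meg3 clone, against 5.52, 5.78 and 5.78 in the vector clone. The groups were close but apart (log2 difference -0.44, SE 0.15; limma adjusted p = 0.493). Hoxc10, which marks lumbar motor neurons, had 5.33, 5.08 and 5.05 in the Meg3 clone, against 5.57, 5.50 and 5.45 in the vector clone. The arrays did not overlap (-0.35, SE 0.12; limma adjusted p = 0.506), and it was called without both arrays that stood apart (-0.44, adjusted p = 0.0308). With the median of its probe sets the difference of Hoxc10 was -0.069 (limma adjusted p = 0.999), and with its brightest probe set that of Hoxc6 was -0.059.

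Hoxc9 had a gene value of 5.08 ± 0.09 in the Meg3 clone and 5.34 ± 0.14 in the vector clone (SD, n = 3 each; -0.26, SE 0.13). Its probe set 3 read 6.92, 6.76 and 6.86 in the Meg3 clone and 7.51, 7.62 and 7.56 in the vector clone, tight within each clone (-0.72, SE 0.17). Probe sets 1 and 2 overlapped between the clones and differed by -0.03 and -0.04. Hoxc8 and Hoxc11 differed by -0.18 and -0.17, with overlap. Hoxc4, Hoxc5, Hoxc12 and Hoxc13 differed by at most 0.13.

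In cluster D no gene separated the clones. Hoxd11, which shapes the forearm and kidney, read 6.39, 6.19 and 6.12 in the Meg3 clone and 5.94, 6.70 and 6.17 in the vector clone (log2 difference -0.03, SE 0.20; 95% interval -0.49 to 0.42). Hoxd9, a paralogue of Hoxb9, differed by 0.06 (SE 0.19; interval -0.38 to 0.50). Hoxd13, the digit gene, differed by 0.20 (SE 0.14), and Hoxd3 by -0.20 (SE 0.17). The remaining 5 genes, Hoxd1, Hoxd4, Hoxd8, Hoxd10 and Hoxd12, differed by -0.10 to 0.02.

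Seen by probe set, the difference was concentrated. Of the 147 Hox probe sets, 11 (7.48%) were at least 2-fold lower in the Meg3 clone, by -3.76 to -1.51 on the log2 scale, where 1.66% of all probe sets were. They belong to 6 genes, Hoxa5, Hoxa7, Hoxb5, Hoxb6, Hoxb8 and Hoxb9, and all 11 were without overlap. At least 2-fold higher were 0, where 1.32% of all probe sets were. The groups did not overlap, with Meg3 lower, at 23 Hox probe sets (15.6%, against 5.41% of all) and, with Meg3 higher, at 7, where 6.08% of all were. With each probe set tested by itself, limma called 0 of the 147 Hox probe sets, the lowest adjusted p being 0.0525, and 2 of all 241419 probe sets were (0.000828%).

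A level on an array has no true zero, and probe sets differ in brightness for reasons other than RNA. Odorant receptor genes (Olfr), which are used mainly in the nose, therefore served as a background. The bar was the 95th percentile of 979 Olfr genes, 5.91 in the Meg3 clone and 5.81 in the vector clone. Of all genes, 65.2% lay above the bar in the Meg3 clone and 67.4% in the vector clone. Of the 38 Hox genes, 10 (26.3%) did in the Meg3 clone and 14 (36.8%) in the vector clone. Olfr genes have a median of 1 probe set and Hox genes of 4, so their gene values do not spread alike.

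**Figure D3:**
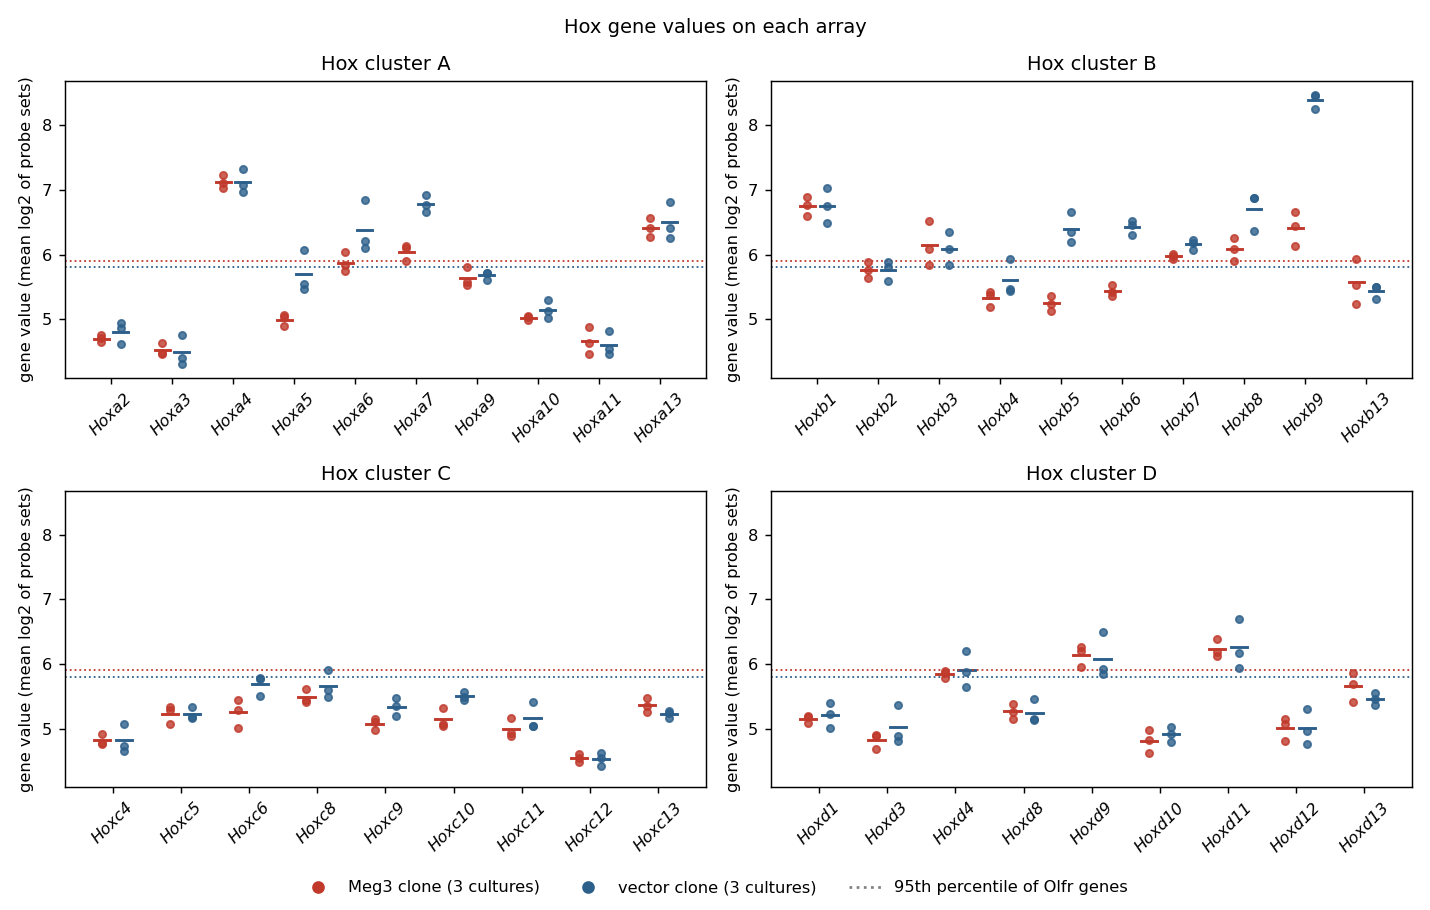
Gene value (mean log2 of the gene's probe sets) of each Hox gene on the 3 Meg3 arrays (red, left) and the 3 vector arrays (blue, right), by cluster; short lines are group means and dotted lines the 95th percentile of Olfr genes in each clone (5.91 in Meg3, 5.81 in vector). Hoxb9 stands at 8.24 to 8.47 on the vector arrays and 6.14 to 6.66 on the Meg3 arrays, and all 9 genes of cluster C have means under the bar.

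The 10 genes above the bar in both clones were Hoxa4, Hoxa7, Hoxa13, Hoxb1, Hoxb3, Hoxb7, Hoxb8, Hoxb9, Hoxd9 and Hoxd11. Another 4, Hoxa6, Hoxb5, Hoxb6 and Hoxd4, were above it in the vector clone alone. Of these, Hoxb5 and Hoxb6 were called, and Hoxd4 lay close to the bar in both clones, with means of 5.85 in the Meg3 clone and 5.91 in the vector clone. The remaining 24 genes, with all 9 of cluster C, were under the bar in both clones. Above the median of all genes were 2 Hox genes in the Meg3 clone (Hoxa4 and Hoxb1) and 5 in the vector clone, where Hoxa7, Hoxb8 and Hoxb9 joined them. A gene value can hide a bright exon. Hoxa2, Hoxa5, Hoxa9, Hoxb2, Hoxb4, Hoxc9, Hoxd3 and Hoxd8 were under the bar in both clones. Yet each had a probe set with a mean over 7 in the vector clone. Such a bright probe set separated the clones in Hoxa5 and Hoxc9 and overlapped in the other genes, as in Hoxb2, at 7.96 in the Meg3 clone and 8.04 in the vector clone.

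Vector replicate 2 read high for Hox genes. Its Hox gene values were above the mean of the other vector arrays for 35 of 38 genes, by a median of 0.29, against 0.08 over all genes. The median Hox value was 5.43, 5.30 and 5.35 on the Meg3 arrays, against 5.50, 5.75 and 5.53 on the vector arrays, while the median of all genes was 6.60 to 6.68 on the Meg3 arrays and 6.62 to 6.68 on the vector arrays. The shift was widest in cluster D (median 0.44) and for genes numbered 1 to 4 (0.38), which held no called gene, and was 0.22 in cluster B. For Olfr genes it was 0.23. Without vector replicate 2 the median log2 difference of the Hox genes was -0.02, and Hoxb9 (-2.05), Hoxb5 (-1.03) and Hoxb6 (-0.95) were called together with Hoxa7 (limma). The part of this array in the smaller differences was not tested.

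Known partners and regulators of Hox genes and genes beside the clusters were examined by list. In 6 lists of TALE cofactors, ParaHox genes, Polycomb and trithorax/MLL subunits and retinoic acid genes, and in 5 lists of genes and non-coding RNAs in or beside the clusters, 103 genes were measured. Of these, 0 were called by limma (lowest adjusted p = 0.111), where 0.666% of all genes were. At an unadjusted p under 0.05, 3 (2.91%) were lower and 1 (0.971%) higher, where 4.28% and 2.68% of all genes were, and the median log2 difference was 0.00. The lists are not complete, and the Hox genes are not in them.

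**Figure D4:**
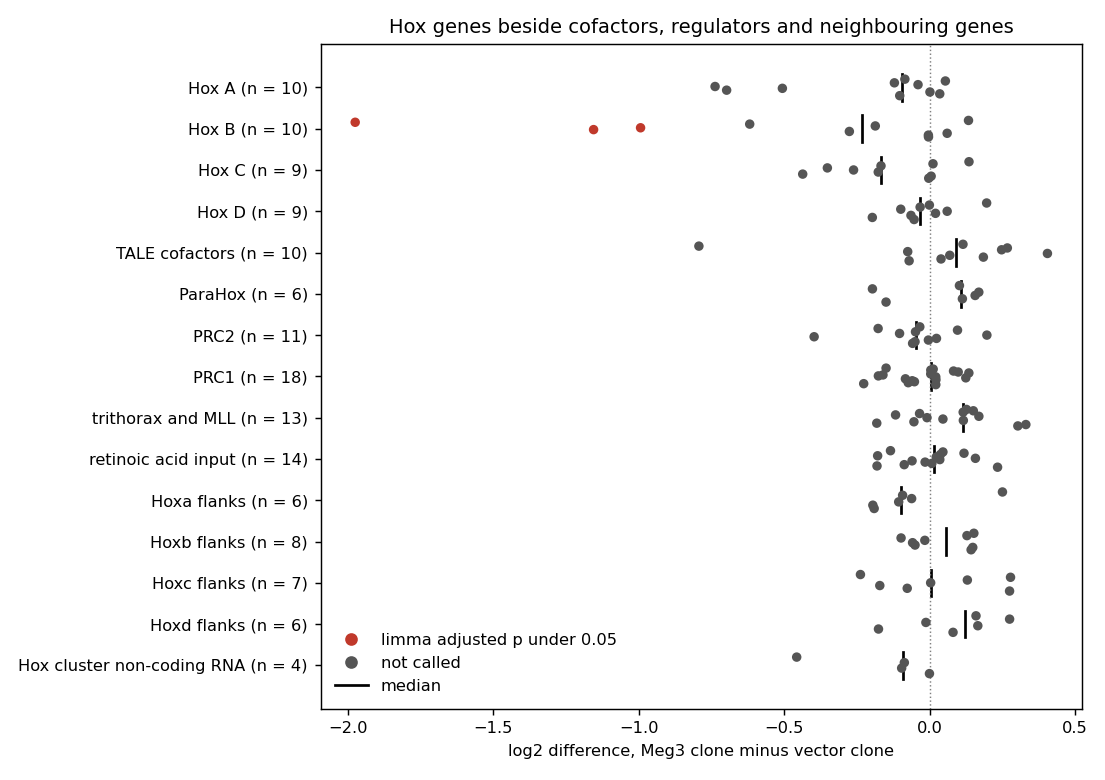
Log2 difference, Meg3 clone minus vector clone (x axis), for each gene of the Hox clusters and of the lists of cofactors, regulators and neighbouring genes (rows); red points have a limma adjusted p under 0.05 and black lines are medians. The called points are Hoxb9, Hoxb5 and Hoxb6, and the lists' medians lie between -0.10 and 0.12.

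TALE proteins are homeodomain proteins, some of which, such as the Pbx proteins, bind DNA together with Hox proteins. All 10 measured were above the bar in both clones, with a median difference of 0.09. Pbx3 was at 9.87 ± 0.05 in the Meg3 clone and 9.83 ± 0.23 in the vector clone (SD, n = 3 each), a log2 difference of 0.04 (SE 0.14). Tgif1, a TALE repressor, was at 7.76 ± 0.12 in the Meg3 clone and 8.55 ± 0.29 in the vector clone (-0.79, SE 0.16; limma adjusted p = 0.111). Tgif1 was called without vector replicate 2 (-0.96, adjusted p = 0.00839) and without both arrays that stood apart (-0.89, adjusted p = 7.88e-04). ParaHox genes, the evolutionary sisters of the Hox clusters, had 6 measured members and a median of 0.11, with the beta cell factor gene Pdx1 at -0.15 (SE 0.17) and Cdx1 at 0.17 (SE 0.18).

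Polycomb repressive complex 2, which places the repressive mark on silent Hox genes, had all 11 measured members above the bar in both clones, a median of -0.05 and 8 negative differences. Their summed level was 99.58 to 100.33 on the Meg3 arrays and 100.50 to 100.74 on the vector arrays, without overlap, and its part in the Hox results was not tested. Among all lists, only the beta cell markers separated likewise. The summed levels of every other list, PRC1 and trithorax/MLL included, overlapped between the clones. Suz12 differed by 0.02 (SE 0.14) and Mtf2 by -0.10 (SE 0.16). Jarid2, a PRC2 partner named here because of its value, had a log2 difference of -0.40 (SE 0.12, limma adjusted p = 0.353). It was called lower without both arrays that stood apart (-0.44, limma adjusted p = 0.0348). Jarid2 is part of the summed level of the 11 members. Of these it had the most negative difference, and it alone had groups without overlap, where 6.39% of all genes were lower without overlap. The summed level therefore does not show a difference across the complex. PRC1 had 18 members measured (median 0.00), with the ubiquitin ligase gene Rnf2 at -0.23 (SE 0.11) and Pcgf3 at -0.18 (SE 0.12). Of the trithorax and MLL list, 13 were measured (median 0.11), with Psip1, an MLL tether, at -0.05 (SE 0.13) and the core subunit gene Dpy30 at 0.17 (SE 0.12). The retinoic acid list had 14 measured (median 0.01), with the receptor genes Rarg at -0.09 (SE 0.11) and Rxra at 0.01 (SE 0.24).

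Of the genes flanking the clusters, 0 were called by limma. The 8 flanking genes measured beside cluster B had a median log2 difference of 0.06 (range -0.10 to 0.15), with Nfe2l1 at -0.06 (SE 0.28) and Copz2 at -0.02 (SE 0.26). The 6 beside cluster A had a median of -0.10, with Tax1bp1 at -0.09 (SE 0.14) and Jazf1 at 0.25 (SE 0.16). Those beside C and D, 7 and 6 genes, had medians of 0.00 and 0.12, with Hnrnpa1 at -0.17 (SE 0.11), Atp5g2 at -0.24 (SE 0.19), Atp5g3 at 0.27 (SE 0.13) and Atf2 at -0.01 (SE 0.11). Of the non-coding RNAs within the clusters, 4 were measured and 0 were called by limma. Hoxaas3 differed by -0.09 (SE 0.17), and Hoxd3os1, which overlaps Hoxd3, was dim at 4.87 ± 0.09 in the Meg3 clone and 5.33 ± 0.10 in the vector clone (-0.46, SE 0.12; limma adjusted p = 0.217) and was called lower without both arrays that stood apart (-0.46, adjusted p = 0.0318).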

How the data were processed

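Per the submitters' processing notes, RMA made the log2 values per probe set that the authors deposited for 6 Affymetrix arrays; the notes list Partek too. Versions of these tools and a build were not given in the sources used here. Only the 212097 probe sets annotated to 1 symbol were used, which left out 4475 with more than 1 symbol and 24847 without any. A gene's value was the mean log2 value of its probe sets, with no filter. Meg3 minus vector was tested two-sided by limma 3.58.1 (R 4.3.3; lmFit and eBayes without a covariate). Adjustment was by Benjamini-Hochberg over the 20416 genes, and "called" means an adjusted p under 0.05. Errors of log2 differences are limma's standard errors, and intervals are its 95% intervals. Single probe sets were tested likewise. The members and lists were chosen with earlier results of these data known. List genes were matched by symbol (131 of 159 entries) or through a RefSeq synonym (8), and 20 were not matched. The genes named were Hox genes that were called, had an unadjusted p under 0.05 or were among the 8 with the highest mean, and from each list of partners, regulators and neighbours, and of beta cell markers, the called genes or the 2 with the highest mean; markers of other cell types are given by counts. Other Hox genes complete their cluster, and Ins2, Gcg, Pcsk1, Slc2a2, Jarid2, Hoxc9 and single probe sets were named after their values were seen. On simulated data over 20416 genes for this comparison, the test called 53 of 100 genes shifted by 1 on the log2 scale, 93 of 100 shifted by 2, and 8 unshifted ones. The simulation drew independent values with the same SD of a gene on every array. It did not copy the wider spread of Meg3 replicate 1 and vector replicate 2, so its counts may not hold for these arrays. No pairing was used, since the labels state no covariate. Whether samples sharing a replicate number are paired could not be settled from their deviations. Alternatives were centring, quantile normalization, other gene summaries, a filter on dim genes, other variance models, a replicate block and leaving out arrays. Precision is limited by the number of arrays.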

Additional observations from a re-analysis of the deposited data

How the results depend on the processing

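Hoxb9 kept its direction and its call in all 16 alternative settings. Hoxb5 and Hoxb6 kept their direction in the 15 settings that gave them a value and their call in 9 and 8. The 9 include the brightest probe set of Hoxb5, a choice that favours a difference there. Both calls were lost with the median of the probe sets (limma adjusted p = 0.189 and 0.328), and that of Hoxb6 with the brightest (0.398). The number of Hox genes called was 1 with only probe sets above the median of all probe sets (which leaves Hoxb5 and Hoxb6 without any), 11 with array weights (2 higher, 9 lower), 2 with the median of the probe sets, 1 with a replicate block, 6 without both arrays that stood apart, and from 1 to 4 with 1 array left out. Genes called in all were 58 with the median of the probe sets, 40 with the brightest probe set, 2682 with array weights, 30 with the replicate block, 1111 without both arrays, and from 22 to 349 with 1 array left out. Same-numbered arrays correlated at -0.61, -0.63 and 0.28 in their deviations from the group means. Meg3 replicate 1 and vector replicate 2 weigh on those means. The correlations therefore cannot decide whether same-numbered arrays share more than a number. Under the block Hoxb5 (limma adjusted p = 0.103) and Hoxb6 (0.126) were not called. In the lists of partners, regulators and neighbours, 13 genes were called with array weights, 3 without both arrays, and from 0 to 1 with 1 array left out. Cluster medians moved to -0.42 (B) with the median of the probe sets and -0.34 (C) with the brightest probe set. With only bright probe sets cluster C was at -0.72, but probe set 3 of Hoxc9 was all that was left of it. Without the dimmest 30% of genes the medians were -0.30 (A) and -0.40 (B), and cluster C had no gene left. With 1 array left out they ran from -0.17 to -0.029 (A), -0.30 to -0.15 (B), -0.24 to -0.042 (C) and -0.16 to 0.13 (D), and that of all Hox genes from -0.18 to -0.024; cluster D's 0.13 and the value nearest 0 for all Hox genes came without vector replicate 2. Hox genes above the bar numbered 2 in the Meg3 clone and 5 in the vector clone with the bar at the median of all genes, 1 and 2 with the 99th percentile of Olfr genes, and 23 and 28 with the brightest probe set. Signs turned for genes that no setting called: Hoxa4 (-0.089, -0.039 and -0.10 with the median, brightest and only bright probe sets; -0.077 to 0.098 with 1 array left out), Hoxa13 (0.048 with the brightest and with only bright probe sets, 0.033 with array weights, 0.078 without both arrays; -0.20 to 0.075), Hoxb1 (0.0054 with centring, 0.12 without both arrays; -0.14 to 0.13), Hoxd11 (0.0017, 0.036, 0.036, 0.023 and 0.10 with the median, brightest and only bright probe sets, array weights and without both arrays; -0.20 to 0.18) and Hoxb8 (0.14 with the brightest probe set). The causes were not tested.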

Other observations

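The rule leaves out 8 probe sets whose annotation names a Hox gene together with another gene. Of these, 0 passed the limma test over all probe sets, the probe set shared by Hoxb8 and Hoxb7 included, and 2 had an unadjusted p under 0.05. Of 3 probe sets shared by Hoxd4 and Hoxd3, the one that differed most read 6.16, 4.59 and 4.18 in the Meg3 clone and 5.68, 7.27 and 6.11 in the vector clone, a log2 difference of -1.37 (SE 0.61). The groups overlapped there, and at the other two the difference was -0.57 and -0.02, again with overlap. A probe set shared by Hoxa3 and 5730446D14Rik read 6.55, 5.64 and 6.03 in the Meg3 clone and 5.48, 5.40 and 5.36 in the vector clone. It was higher without overlap, by 0.66 (SE 0.26; limma adjusted p = 0.864 over all probe sets).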
